A study of Homo sapiens with 6 samples.

Results

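The WNT genes described here are 48 genes of ligands, receptors, co-receptors, secreted antagonists, export proteins, feedback inhibitors and TCF/LEF factors, read from 60660 genes in each of 6 RNA-sequencing libraries. They were chosen by name for their known roles, with earlier results of these data known. The libraries came from 12Z cells, an established epithelial line derived from endometriosis, harvested 72 h after transfection. Control cells (3 libraries) had received a non-targeting siRNA oligo, and knockdown cells (3 libraries) the siRNA LINC01133a at 10 nM against the long non-coding RNA LINC01133. All 6 libraries were thus from 1 cell line with RNAiMAX and an siRNA. With 1 targeting siRNA in the design, loss of LINC01133 and any other action of this oligo cannot be told apart.

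WNT proteins are secreted lipid-modified ligands. PORCN attaches the lipid, WLS carries the ligand to the cell surface, and frizzled receptors bind it together with LRP5 or LRP6, which stabilizes beta-catenin so that it can act with TCF/LEF factors in the nucleus. Other WNT ligands act through ROR1, ROR2 or RYK on cell movement and polarity, while SFRP, DKK and WIF proteins block signalling outside the cell. In the endometrium, WNT signalling takes part in gland formation, in the response to steroid hormones and in decidualization.

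LINC01133 (ENSG00000224259.7, chr1:159958035-159984750, plus strand, GRCh38) had 813, 818 and 837 normalized counts in control 1 to 3 and 130, 131 and 138 in knockdown 1 to 3, or 16.1% of control (edgeR adjusted p = 3.4e-11). Depth was 27742562 to 37551194 counts on genes per library. A normalized count is a count scaled by the TMM method, whose factors were 0.968 to 0.984 in control and 1.02 to 1.03 in knockdown libraries. The epithelial keratins KRT8, KRT18 and KRT19 were abundant, at 469, 579 and 529 RPKM in control cells, whereas EPCAM had 9 to 26 counts per library. The stromal genes COL1A1 (301 RPKM) and THY1 (49.0 RPKM) were also abundant, whereas DCN, PDGFRB and COL1A2 had 14.1, 10.7 and 3.64 RPKM. CD3E was at 0, and CD68, PECAM1 and CLDN5 had at most 3 counts in any library. Summed normalized counts of the 6 epithelial markers came nearly all from KRT8, KRT18 and KRT19. They lay between 199952 and 210812 in control and between 127729 and 133727 in knockdown cells. Those of the 5 stromal markers, mostly from COL1A1, lay between 101684 and 117251 and between 96815 and 100441. THY1, PDGFRB and DCN fell by 0.38, 0.32 and 0.25 on the log2 scale (edgeR adjusted p = 1.1e-05, 9.0e-05 and 0.00425). COL1A1 and COL1A2 had log2 fold changes of -0.10 and -0.27 (edgeR adjusted p = 0.13 and 0.082). Among the epithelial markers, CDH1 fell to 24.6% of control (log2 fold change -2.02, edgeR adjusted p = 3.9e-08), and EPCAM had a log2 fold change of 0.31 (edgeR adjusted p = 0.46). For the 4 immune markers, nearly all from CD14, the sums were 1617 to 1823 and 846 to 907, and for the 4 endothelial markers, nearly all from KDR, 1531 to 1561 and 957 to 1007. The part of these shifts in the WNT results was not tested, and a lower count per cell cannot be told from fewer cells that express a gene.

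The oligo is shown first because the knockdown rests on it, together with the WNT transcripts that hold a match to its seed. Capitals mark the seed, bases 2 to 8, in the siRNA, and the matching word AGAATGG in the 3′ UTR windows.
LINC01133a guide strand: uCCAUUCUcagguaacuucaa
LINC01133a passenger strand: gAAGUUACcugagaauggatt
WNT2B 3′ UTR site: cttccttcAGAATGGagtcaact
WNT5A 3′ UTR site: cattctgcAGAATGGaaacccat
WNT3 3′ UTR site: acttcagcAGAATGGatacgaat
CTNNB1 3′ UTR site: aatgcacaAGAATGGatcacaag
The 19 paired bases of the oligo lie in an exon of LINC01133 at chr1:159976669-159976687 on the plus strand, in 3 of its 5 annotated transcripts. The windows lie at chr1:112522831-112522853 (plus strand) for WNT2B, chr3:55468225-55468247 (minus strand) for WNT5A, chr17:46762902-46762924 (minus strand) for WNT3 and chr3:41239864-41239886 (plus strand) for CTNNB1, the gene of beta-catenin. In all 4, the word is followed by an A. Coordinates and windows are from GRCh38 with the GENCODE v44 annotation, 1 canonical transcript per gene.

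Matches to the guide seed were counted in the WNT genes and in all genes. The 7-base word stood in the 3′ UTR of 6 of the 35 WNT genes tested (17.1%), namely WNT2B, WNT3, WNT5A, DKK3, FZD3 and FZD5, and in 2144 of 12536 tested genes with an annotated 3′ UTR (17.1%). With the following A, it stood in 3 WNT genes (8.57%) and in 724 of those 12536 genes (5.78%). Of the 9 WNT genes called differentially expressed below, WNT2B held a guide match and FZD7 a match to the passenger seed (word GTAACTT). The passenger word was present in 5 of 35 WNT genes (14.3%) and in 1705 of the 12536 genes (13.6%). A match is a description of the sequence and not a site of action.

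Of the 48 genes, 35 had enough counts for the test and 13 did not. Every adjusted p below, unless another tool or setting is named, is from the quasi-likelihood test of edgeR for knockdown against control, adjusted by Benjamini-Hochberg over 15155 genes. Under another setting, such as 1 library left out, the adjustment was over the genes tested there. Differential expression (DE) required a fold change over 1.5, or 0.585 on the log2 scale, and an adjusted p under 0.05. Among the 35 WNT genes, 9 were DE (25.7%), against 11.7% of all genes tested. Of these, 8 were lower in knockdown cells, WNT2B, WNT4, WNT7B, WNT10A, FZD4, FZD7, SFRP1 and SFRP4 (22.9% of the 35, against 6.43% of all genes), and 1, FZD8, was higher (2.86%, against 5.3%). By adjusted p alone, 21 WNT genes passed (60.0%, against 48.3% of all genes), 14 of them lower (against 25% of all genes) and 7 higher (against 23.3%). The values of the groups did not overlap for 21 WNT genes, against 57.3% of all genes tested, so by this measure the WNT genes were close to the background. Of these, 13 were lower (against 29% of all genes) and 8 higher (against 28.3%). The median log2 fold change was -0.24 over the 35 WNT genes and 0.0032 over all genes tested. Of all DE genes, 803 were higher and 975 lower. With library size alone in place of TMM, which moved the median of all genes by 0.062, 1030 were higher and 814 lower, while the DE WNT genes were again 8 lower and 1 higher by count.

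**Figure D1:**
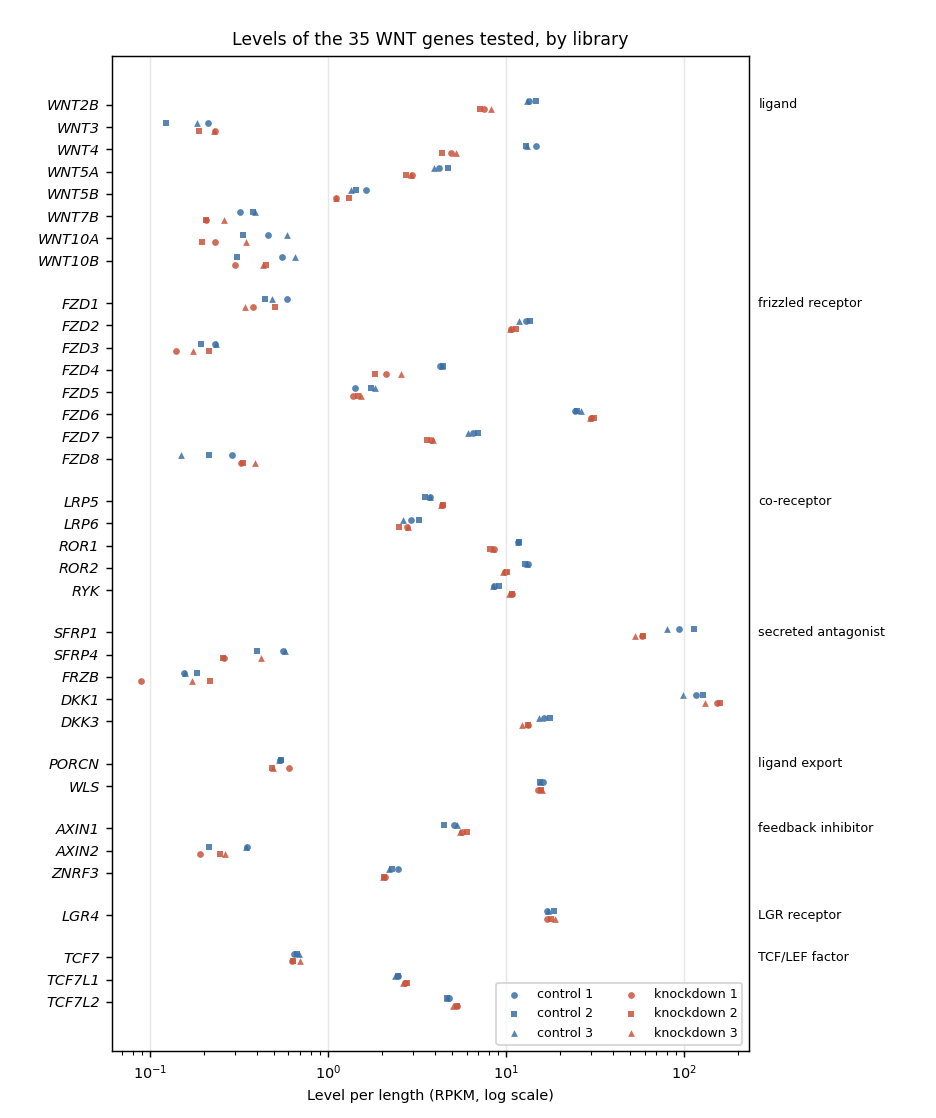
Level per length (RPKM, log axis) of the 35 WNT genes tested in each of the 6 libraries, grouped by role. Blue symbols are control and red symbols knockdown libraries, and the symbol shape is the replicate number. DKK1 and SFRP1 lie highest, and the control and knockdown symbols of WNT4, WNT2B, FZD4 and FZD7 stand apart, while those of WLS and LGR4 overlap.

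Levels per length spanned from no counts to above 100 RPKM, that is normalized counts scaled by library size and exon length. The length is that of all annotated exons together, 11958 bases for DKK3 and 2221 for DKK1. Ranks and shares of summed levels therefore depend on the annotation. By mean normalized counts in control cells, DKK1 had 8219, DKK3 6366 and FZD6 3342. In control cells the secreted antagonists DKK1 (114 RPKM) and SFRP1 (95.6 RPKM) were highest, followed by FZD6 (25.4 RPKM), LGR4 (17.5 RPKM), DKK3 (16.4 RPKM), WLS (15.8 RPKM), WNT2B (13.8 RPKM) and WNT4 (13.6 RPKM). WNT2B and WNT4 were thus the main ligands in control cells, with control ranges that overlapped each other. All other ligands were lower, WNT5A being next at 4.29 RPKM and WNT5B at 1.47 RPKM.

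The 2 most abundant ligands, WNT2B and WNT4, were lower in knockdown cells, and the summed ligand level rests mainly on them. The summed level of the 12 ligand genes was 35.9, 35.4 and 33.6 RPKM in control and 17.7, 16.8 and 19.0 RPKM in knockdown libraries. Of the 8 ligands tested, 4 were DE and lower (50%, against 6.43% of all genes), WNT5A and WNT5B also passed by adjusted p and were lower, and WNT3 and WNT10B did not pass. The remaining 4 ligands, WNT6, WNT7A, WNT9A and WNT11, were too low for the test.

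WNT4 (ENSG00000162552.15, chr1:22117313-22143969, minus strand) had the largest log2 fold change of the 35. This ligand is needed for formation of the female reproductive tract and for decidualization. Its normalized counts were 2227, 1958 and 1970.0 in control 1 to 3 and 740.0, 658 and 793 in knockdown 1 to 3. All 3 knockdown libraries lay below every control library, and the mean fell to 35.5% of control. The log2 fold change was -1.49 ± 0.068 (SE, adjusted p = 2.9e-09).

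WNT2B (ENSG00000134245.18, chr1:112466541-112530165, plus strand), a ligand of the beta-catenin branch, had 5392, 5915 and 5237 normalized counts in control and 3020.2, 2853 and 3278 in knockdown libraries. The groups were separate, and its log2 fold change was -0.85 ± 0.056 (SE, adjusted p = 6.4e-08), or 55.3% of control. With the fall of WNT4, the make-up of the ligand pool differed between groups. WNT4 made up 36.8% to 41.2% of the summed ligand level in control and 26.1% to 27.7% in knockdown libraries. WNT2B made up 37.5% to 41.7% and 42.5% to 43.1%.

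WNT5A (ENSG00000114251.15, chr3:55465715-55490539, minus strand), the classical ligand of ROR2, had 967, 1097 and 916 normalized counts in control and 686, 633 and 678 in knockdown libraries. Every knockdown library was lower than every control library. Its log2 fold change of -0.58 ± 0.068 (SE, adjusted p = 1.4e-05) lay just short of the fold change needed for DE. The related WNT5B fell by 0.33 on the log2 scale (adjusted p = 0.029), from 202 ± 21.1 to 162 ± 15.7 normalized counts (SD, n = 3 per group, edgeR). WNT5B no longer passed with library size alone, with DESeq2, or without control 1, knockdown 1 or knockdown 3 (adjusted p of up to 0.13).

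WNT7B (ENSG00000188064.10, chr22:45920366-45977162, minus strand), a ligand typical of epithelia, was low in both groups. It had 53.0, 62.0 and 64.3 normalized counts in control and 33.9, 34.0 and 43.1 in knockdown libraries, without overlap. WNT7B fell by 0.70 ± 0.18 on the log2 scale (SE, adjusted p = 0.0054). WNT10A (ENSG00000135925.9, chr2:218880852-218899581, plus strand), known for its role in teeth and skin appendages, had 43.5, 31.5 and 56.0 normalized counts in control and 22.04, 18.4 and 32.9 in knockdown libraries. Knockdown 3 lay above control 2, so the groups overlapped. Its log2 fold change was -0.87 ± 0.26 (SE, adjusted p = 0.016), and the call was lost without control 3, knockdown 1 or knockdown 2 (adjusted p = 0.062 to 0.081).

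The remaining ligands gave wider intervals or few counts. For WNT3 the log2 fold change was 0.31 (95% interval -0.18 to 0.79, adjusted p = 0.28) and for WNT10B -0.38 (-0.96 to 0.19, adjusted p = 0.25). WNT10B was DE without control 2, at -0.63 (adjusted p = 0.030). Of the untested ligands, WNT11 had 13, 10 and 9 counts in control and 4, 5 and 6 in knockdown libraries. WNT6 had 3 to 9 counts per library, WNT9A 2 to 10, and WNT7A none. A count of 0 allows up to 3 counts, or 0.0786 to 0.105 CPM depending on the library, and covers counting error only.

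**Figure D2:**
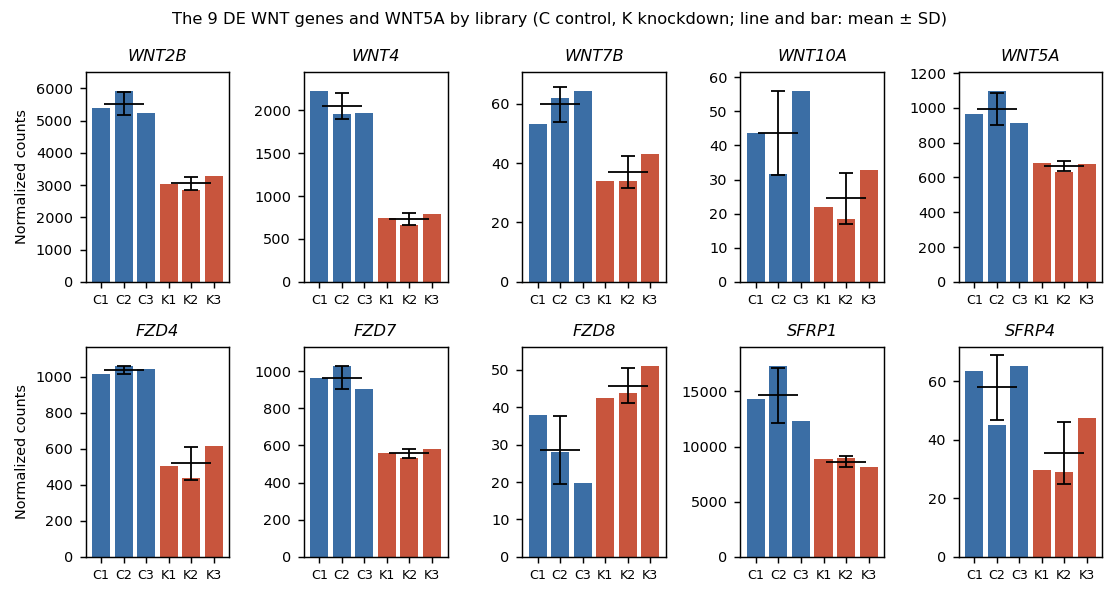
Normalized counts in each library for the 9 DE WNT genes and WNT5A, which lay just under the fold change cutoff. Bars are single libraries (C control, K knockdown, replicates 1 to 3), and the black line and whiskers are the group mean ± SD. Knockdown bars are lower than every control bar for WNT2B, WNT4, WNT7B, WNT5A, FZD4, FZD7 and SFRP1, overlap with control for WNT10A and SFRP4, and are higher for FZD8.

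Among the 8 frizzled receptors the changes went in both directions, and the sum differed less than single members. The summed level was 50.8, 52.8 and 51.6 RPKM in control and 48.8, 50.4 and 49.1 RPKM in knockdown libraries. All 8 receptors were tested. FZD4 and FZD7 were DE and lower, FZD8 was DE and higher, FZD2 was lower and FZD6 higher by adjusted p alone, and FZD1, FZD3 and FZD5 did not pass.

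FZD4 (ENSG00000174804.4, chr11:86945679-86955395, minus strand), which also binds the non-WNT ligand norrin, had 1016, 1060.0 and 1041 normalized counts in control and 504, 437 and 615 in knockdown libraries. The 3 control libraries were close together, and all 3 knockdown libraries lay well below them. FZD4 fell by 1.01 ± 0.089 on the log2 scale (SE, adjusted p = 1.1e-06), to 49.7% of control. Its exons overlap PRSS23 on the opposite strand over 18.9% of their length. FZD7 (ENSG00000155760.2, chr2:202033855-202038441, plus strand), a receptor often found in stem and progenitor cells, had 965, 1028 and 905 normalized counts in control and 561, 532 and 580 in knockdown libraries. Again no library overlapped between groups. FZD7 fell by 0.79 ± 0.061 on the log2 scale (SE, adjusted p = 3.2e-07), to 57.7% of control.

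FZD6 (ENSG00000164930.12), a receptor linked mainly to cell polarity, was the most abundant frizzled. It had 3228, 3306 and 3492 normalized counts in control and 3943, 4085 and 3903 in knockdown libraries. The groups were separate, and FZD6 rose by 0.25 ± 0.041 on the log2 scale (SE, adjusted p = 2.1e-04). Its share of the summed frizzled level lay between 47.6% and 51.5% in control and between 60.4% and 61.6% in knockdown libraries. FZD4 made up 8.36% to 8.45% in control and 3.63% to 5.24% in knockdown libraries, and FZD7 11.8% to 13.1% and 7.11% to 7.96%.

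FZD8 (ENSG00000177283.7, chr10:35638247-35642296, minus strand), a frizzled of the beta-catenin branch, was among the lowest frizzled transcripts. It had 37.9, 28.2 and 19.7 normalized counts in control and 42.4, 43.7 and 51.1 in knockdown libraries. The lowest knockdown library lay just above the highest control library. Its log2 fold change was 0.65 ± 0.23 (SE, adjusted p = 0.032), and the call was lost with DESeq2 (adjusted p = 0.069) and when control 3 or any 1 knockdown library was left out (adjusted p = 0.052 to 0.13). FZD2 fell by 0.24 (adjusted p = 0.0029), from 1572 ± 113 to 1330.3 ± 57.9 normalized counts (SD, n = 3 per group, edgeR). The log2 fold changes of FZD1, FZD3 and FZD5 were -0.31, -0.33 and -0.19, with adjusted p-values between 0.12 and 0.13. With 1 library left out they ranged from -0.49 to -0.19, from -0.49 to -0.16 and from -0.29 to -0.11, and FZD1 (adjusted p = 0.033) and FZD3 (adjusted p = 0.034) passed without knockdown 2 and FZD5 without control 1 (adjusted p = 0.014).

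The co-receptors also changed in both directions. The receptors ROR1 and ROR2, which pair with WNT5A, were lower, whereas LRP5 and RYK were higher, none of them with the fold change needed for DE. ROR1 (ENSG00000185483.12) had 2532, 2578 and 2540.0 normalized counts in control and 1852, 1758 and 1827 in knockdown libraries. These groups were far apart for their spread, and ROR1 fell by 0.49 ± 0.039 on the log2 scale (SE, adjusted p = 3.6e-07). ROR2 (ENSG00000169071.15), with the highest level per length of the co-receptors in control cells, had 2520.0, 2432 and 2501 normalized counts in control and 1889, 1930.4 and 1840.2 in knockdown libraries. It fell by 0.40 ± 0.039 (SE, adjusted p = 2.7e-06), also without overlap.

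LRP5 rose by 0.25 (adjusted p = 0.0012), from 733 ± 28.2 to 874 ± 13.4 normalized counts, and RYK by 0.29 (adjusted p = 5.7e-05), from 2305 ± 91.8 to 2824 ± 52.7 (SD, n = 3 per group, edgeR). LRP6, the closest relative of LRP5, had a log2 fold change of -0.12 (95% interval -0.28 to 0.03, adjusted p = 0.18), which ranged from -0.20 to -0.05 with 1 library left out and passed without control 3 (adjusted p = 0.036). RYK made up 21.4% to 22.5% of the summed co-receptor level in control and 29.3% to 30.1% in knockdown libraries, and ROR1 29.0% to 29.4% and 22.5% to 23.6%.

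**Figure D3:**
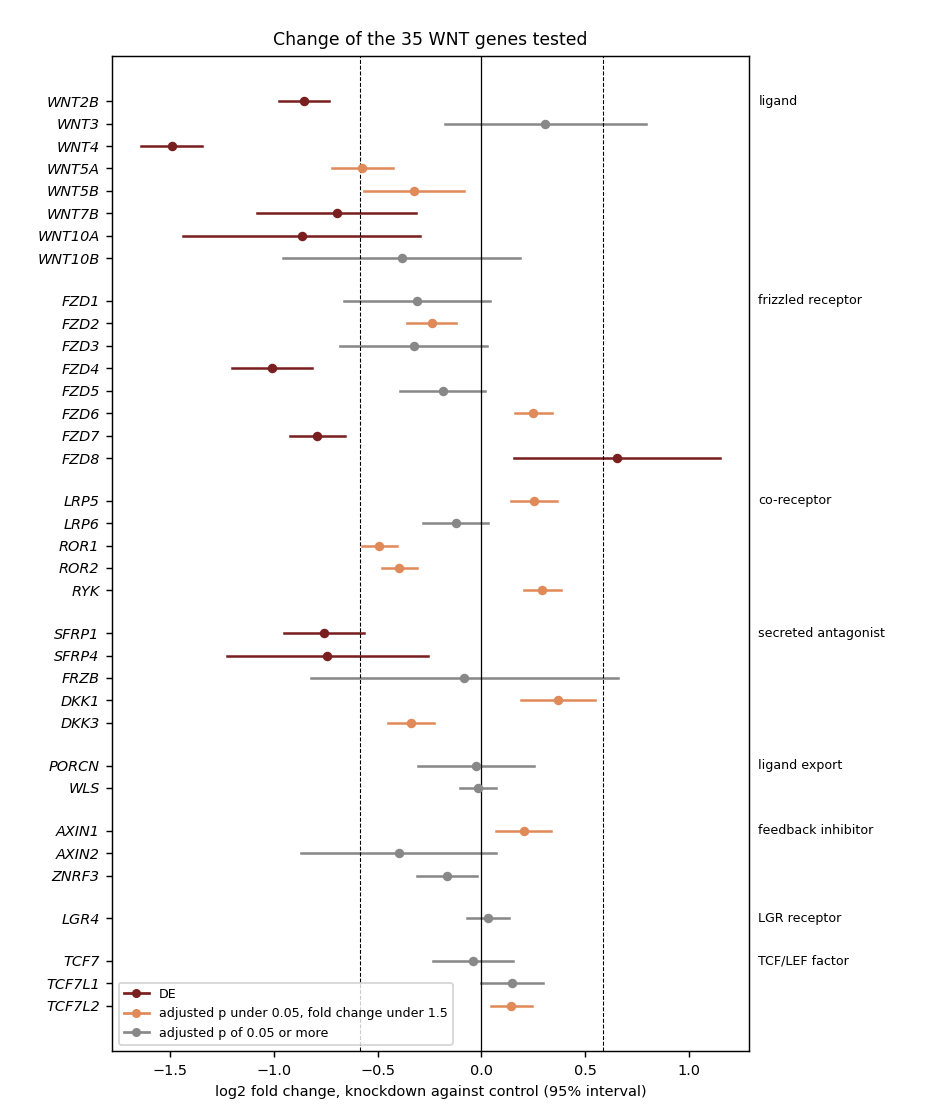
Log2 fold change of knockdown against control for the 35 WNT genes tested, grouped by role. The 95% intervals are approximate, were computed from the edgeR fit and are not adjusted for the number of genes. Dark red marks DE genes, orange an adjusted p under 0.05 without the fold change, grey the others, and dashed lines the fold change of 1.5. The ligands lie mostly left of 0, the frizzleds and co-receptors on both sides, and WLS and LGR4 close to 0 with narrow intervals.

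Of the 8 secreted antagonists, 5 were tested, and SFRP1 and DKK1, the most abundant of all 48 genes, moved in opposite directions. SFRP1 (ENSG00000104332.12, chr8:41261962-41309473, minus strand) binds WNT ligands through a domain like that of frizzleds. It had 14286, 17317 and 12350 normalized counts in control and 8873, 8957 and 8106 in knockdown libraries. The control libraries varied widely among themselves, but the lowest was above every knockdown library. SFRP1 fell by 0.76 ± 0.090 on the log2 scale (SE, adjusted p = 1.4e-05), to 59.0% of control.

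DKK1 (ENSG00000107984.10, chr10:52314281-52318042, plus strand) blocks the co-receptors LRP5 and LRP6 and is itself a known target of beta-catenin. Its normalized counts were 8428, 9129 and 7101 in control and 11016, 11424 and 9368 in knockdown libraries. The lowest knockdown library was higher than the highest control library. DKK1 rose by 0.37 ± 0.083 on the log2 scale (SE, adjusted p = 0.0024), short of the fold change for DE. Its share of the summed antagonist level was 49.2% to 51.5% in control and 66.5% to 68.7% in knockdown libraries, and that of SFRP1 41.0% to 43.8% and 25.3% to 26.98%. The sums themselves were 228, 258 and 195 RPKM in control and 225, 231 and 196 RPKM in knockdown libraries, overlapping between groups.

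SFRP4 (ENSG00000106483.12, chr7:37905932-38025695, minus strand), an antagonist of the same family as SFRP1, was low. It had 63.4, 45.1 and 65.3 normalized counts in control and 29.7, 29.1 and 47.7 in knockdown libraries. Knockdown 3 lay above control 2. SFRP4 had a log2 fold change of -0.74 ± 0.22 (SE, adjusted p = 0.014), and the call was lost without control 1, control 3, knockdown 1 or knockdown 2 (adjusted p = 0.057 to 0.074). DKK3, a Dickkopf family member that does not act on LRP5 and LRP6 as DKK1 does, fell by 0.34 (adjusted p = 1.2e-04), from 6366 ± 442 to 5029 ± 237 normalized counts (SD, n = 3 per group, edgeR). FRZB had 13.3, 15.8 and 13.5 normalized counts in control and 7.63, 18.4 and 14.7 in knockdown libraries, too few to place its log2 fold change (-0.08, 95% interval -0.82 to 0.66). SFRP2, DKK2 and WIF1 had no counts in any library.

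Of the words to which TCF/LEF factors bind, only CTTTGAT and CTTTGAA were searched. The search covered both strands of RefSeq promoters (GRCh38.p14, 250 bases before to 50 after the start). Only 33 of the 48 WNT genes were matched to a promoter. Those without one, among them AXIN2, LGR5, NKD1, ZNRF3, SFRP1, FZD7 and WNT7B, were not searched. Of 42 promoters of the 33 matched WNT genes, 1 held a word (2.38%), that of DKK1, against 2409 of 35116 promoters of all genes (6.86%). The window lies at chr10:52314176-52314202 on the plus strand, with the word, in capitals, 95 bases before the start.
DKK1 promoter word: cctcccagcgCTTTGAAatcccatccc
This window of 300 bases is short, and the search says only where these letters stand.

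Neither export gene passed. WLS had 2331, 2252 and 2237 normalized counts in control and 2169, 2283 and 2288 in knockdown libraries, which overlapped. Its log2 fold change was -0.02 (95% interval -0.10 to 0.07, adjusted p = 0.74) and 0.04 with library size alone. PORCN, at 101 ± 1.52 and 98.6 ± 12.2 normalized counts (SD), had a log2 fold change of -0.03 (-0.31 to 0.26, edgeR adjusted p = 0.89), which was 0.04 with library size alone.

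The feedback inhibitors, several of which are induced by beta-catenin and TCF in many tissues, were mostly low in 12Z cells. AXIN2, the most widely used of these target genes, had 58.7, 36.05 and 58.0 normalized counts in control and 32.2, 41.8 and 44.2 in knockdown libraries. The groups overlapped through control 2, and the log2 fold change of -0.40 (95% interval -0.87 to 0.07) did not pass (adjusted p = 0.15). Without control 2 it was -0.59 (adjusted p = 0.024). AXIN1, a scaffold of the complex that degrades beta-catenin, had 1242, 1094 and 1303 normalized counts in control and 1383, 1472 and 1340 in knockdown libraries. Its lowest knockdown library was above its highest control library, and AXIN1 rose by 0.20 ± 0.061 (SE, adjusted p = 0.014, lost without knockdown 2 at 0.072). ZNRF3, a ubiquitin ligase that removes frizzleds, did not pass (log2 fold change -0.17, adjusted p = 0.054), except without control 3 (adjusted p = 0.032). Its partner RNF43 had 3 to 5 counts per library, NKD1 1 to 5, and NKD2 and APCDD1 at most 2.

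LGR4, an R-spondin receptor that protects frizzleds from ZNRF3 and RNF43, had 3490.3, 3812 and 3518 normalized counts in control and 3505, 3696 and 3856 in knockdown libraries. The groups overlapped, with a log2 fold change of 0.03 (95% interval -0.07 to 0.13, adjusted p = 0.61). LGR5, a stem cell marker in the intestine, had 5 counts in control 2, 1 in knockdown 2 and none elsewhere.

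Of the 4 TCF/LEF factors, TCF7L2 was the most abundant and LEF1 was nearly absent, with at most 2 counts per library. TCF7L2 had 1038, 1022 and 1017 normalized counts in control and 1154, 1150 and 1095 in knockdown libraries. The groups were separate by a small margin, and TCF7L2 rose by 0.14 ± 0.045 (SE, adjusted p = 0.018), with adjusted p-values of up to 0.074 when DESeq2 was used or knockdown 1 or 2 left out. TCF7L1 (0.15, adjusted p = 0.096, and 0.21 with library size alone, where it passed at 0.024) and TCF7 (-0.04, adjusted p = 0.74, and 0.02 with library size alone) did not pass.

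Beyond the 48 genes, 84 further genes of the pathway were listed by role, of which 61 were tested. Among these, 10 were DE (16.4%, against 11.7% of all genes), 9 lower and 1 higher, and 36 passed by adjusted p (59.0%, against 48.3%), 18 in each direction. Their median log2 fold change was -0.0088. The mRNA of beta-catenin itself was among the DE genes.

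CTNNB1, which encodes beta-catenin, had 10324, 10645 and 10456 normalized counts in control and 6506, 6362 and 6433 in knockdown libraries. The spread within each group was small beside the gap, and the log2 fold change was -0.70 ± 0.034 (SE, adjusted p = 5.3e-09), or 61.4% of control. Its 3′ UTR window, printed above, holds the guide word followed by an A, as do those of BIRC5, TLE4 and PYGO1. BTRC, the subunit that hands phosphorylated beta-catenin to the ubiquitin system, had 2109, 2282 and 2112 normalized counts in control and 1307, 1364 and 1306 in knockdown libraries. It fell by 0.71 ± 0.045 (SE, adjusted p = 5.2e-08).

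CTNNB1 and BTRC belong to a list of 19 genes of the destruction complex and of Dishevelled, the adaptor downstream of frizzleds. All 19 were tested, and 9 were higher (against 23.3% of all genes) and 3 lower (against 25%) by adjusted p, or 63.2% in both directions against 48.3%. The 2 DE genes among them (10.5%) were near the background of 11.7%. DVL3 rose by 0.57 (adjusted p = 5.8e-07), from 4155 ± 274 to 6181 ± 187 normalized counts (SD, n = 3 per group, edgeR). GSK3B, the kinase that marks beta-catenin for degradation, rose by 0.21 (adjusted p = 4.7e-04), whereas APC did not pass (log2 fold change -0.09, adjusted p = 0.29).

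Outside the cell, 7 of 20 listed receptors, R-spondins and modulators were tested, and 3 were DE, all lower (42.9%, against 6.43% of all genes). The calls of RSPO1 and TRABD2B, 2 of these 3, were lost when single libraries were left out. KREMEN1, a receptor for DKK1, fell from 1489 ± 103 to 928 ± 37.5 normalized counts (SD, n = 3 per group), by 0.68 on the log2 scale (edgeR adjusted p = 5.8e-07). RSPO1, a ligand of LGR4, had 99.4, 72.1 and 133 normalized counts in control and 49.2, 56.3 and 87.4 in knockdown libraries, which overlapped (log2 fold change -0.69, adjusted p = 0.026, lost without control 1, control 3, knockdown 1 or knockdown 2, with adjusted p = 0.063 to 0.14). TRABD2B, a protease that cleaves WNT ligands, had 25.6, 15.8 and 15.5 normalized counts in control and 3.39, 6.80 and 12.5 in knockdown libraries, without overlap (log2 fold change -1.41, adjusted p = 0.012, lost without control 1 or knockdown 1, with adjusted p = 0.074 and 0.071). Of the 7 other WNT ligands listed, 1 was tested, and its adjusted p did not pass.

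In the nucleus, 7 of 13 co-factors passed by adjusted p, 4 higher and 3 lower (53.8%, against 48.3% of all genes). The 2 that were DE (15.4%, against 11.7%) encode co-repressors of TCF/LEF factors, and both shares were near the background. TLE3 had 957, 927 and 879.8 normalized counts in control and 487, 509 and 529.8 in knockdown libraries. Its log2 fold change was -0.86 ± 0.058 (SE, adjusted p = 8.6e-08). TLE2, a less abundant member of the same family, had 65.3, 74.3 and 56.0 normalized counts in control and 21.2, 20.4 and 39.7 in knockdown libraries (log2 fold change -1.30, adjusted p = 5.4e-04). Neither gene overlapped between groups, while TLE4 rose by 0.24 (adjusted p = 0.0016). TLE5 and TLE1 were the most abundant TLE genes listed, at 39.8 and 15.9 RPKM in control cells, against 2.26 RPKM for TLE3. Their log2 fold changes of -0.03 and -0.015 did not pass (adjusted p = 0.53 and 0.77).

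Of 9 tested target genes of WNT signalling outside the 48, 5 were lower (against 25% of all genes) and 1 higher (against 23.3%) by adjusted p, while 1 was DE (11.1%, against 11.7%). LBH, a developmental transcription co-factor, was that DE gene, with 404, 372 and 383 normalized counts in control and 214, 209.7 and 236 in knockdown libraries (log2 fold change -0.82 ± 0.081, SE, adjusted p = 3.1e-06). BIRC5, which encodes survivin and is high in dividing cells, fell by 0.42 (adjusted p = 9.2e-07). MYC had a log2 fold change of -0.03 (95% interval -0.13 to 0.06, adjusted p = 0.59), which was 0.03 with library size alone, and CCND1, with 74.0 ± 5.94 and 57.0 ± 8.86 normalized counts (SD), one of -0.38 (edgeR adjusted p = 0.067), which passed without knockdown 2 (-0.50, adjusted p = 0.041).

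How far single libraries and settings moved the WNT genes is shown for the 21 that passed. WNT2B, WNT4, WNT7B, FZD4, FZD7 and SFRP1 stayed DE with each of the 6 libraries left out in turn and under every other scaling, filter, tool, strand column and the replicate block. Against a stricter null hypothesis, that the fold change does not exceed 1.5 (glmTreat of edgeR), 4 passed, WNT2B, WNT4, FZD4 and FZD7. By the same test, 578 of all 15155 genes passed (3.81%). WNT5A crossed the DE line without control 1, control 3 or knockdown 1 (log2 fold change -0.59 to -0.63).

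**Figure D4:**
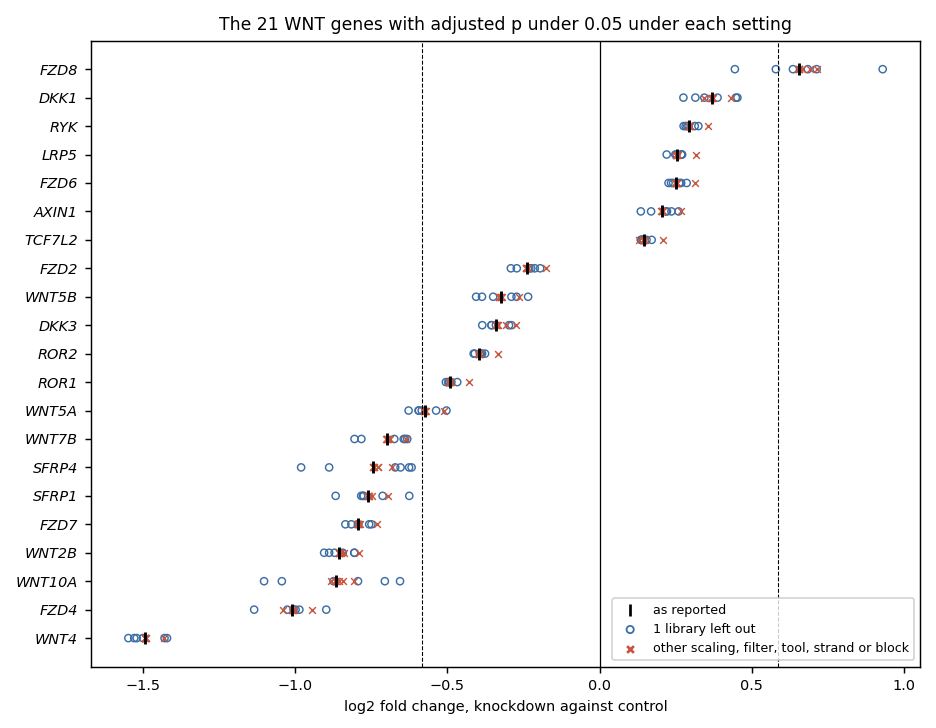
Log2 fold change of the 21 WNT genes with adjusted p under 0.05, as reported (black bar), with 1 library left out (blue circles) and under another scaling, filter, tool, strand column or a replicate block (red crosses). Dashed lines mark a fold change of 1.5. All points of a gene stay on 1 side of 0, and FZD8, WNT10A and SFRP4 show the widest scatter.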

How the data were processed

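RNA-sequencing libraries of 12Z cells (3 control, 3 knockdown, described by the study as biological replicates) were analysed. The deposited values are counts of read pairs per gene: the authors aligned with STAR 2.7.6a to GRCh38.p13 and counted on GENCODE v36, keeping uniquely mapped reads, and the submitters' notes also name SAMtools 1.10. The counts of the strand opposite to read 1, holding 93.9% to 94.1% of stranded counts, were used, since no source used here names a column. Rows without a gene held 13.7% to 15.0% of that column and were left out. The study describes a TruSeq kit and the labels a NEB library.

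Counts were filtered with filterByExpr (minimum count 10), scaled by TMM and tested with edgeR 4.0.16 (R 4.3.3), quasi-likelihood, group as the only term, Benjamini-Hochberg over all genes tested. SE and intervals come from that fit. RPKM used the length of all GENCODE v44 exons of a gene together, with shared bases counted once, matched by gene ID. Alternatives were median-of-ratios factors, library size alone, other filters, DESeq2 1.42.0, unstranded counts, the replicate number as a block, each library left out in turn, and glmTreat. The script was tested on simulated data. Precision is that of 3 libraries per group.

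The WNT genes and all lists were chosen with earlier results of these data known. Values in every library are given for DE genes, for the gene with adjusted p under 0.05 that changed most in each role and for the one highest per length. Of the other lists, CTNNB1, APC, GSK3B, MYC, CCND1 and at most 2 genes per list are named. KREMEN1, DVL3, TLE1, TLE4 and TLE5 and some values per library were added after their values were seen.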

Additional observations from a re-analysis of the deposited data

How the results depend on the processing

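With glmTreat, the number of DE WNT genes was 4 in place of 9, against 578 of 15155 genes tested (3.81%). The number for WNT genes was 9 with median-of-ratios factors, library size alone, both other filters and unstranded counts. Over all genes, DE genes then numbered 1777 to 1844, but 1963 of 29200 without a filter and 1541 of 14028 with at least 10 counts in every library. DE WNT genes numbered 8 with DESeq2 and 6 to 11 with 1 library left out, against 1526 and 1641 to 1815 over all genes. WNT genes that passed by adjusted p numbered 21 in the main analysis, 18 with DESeq2 and 16 to 23 with 1 library left out, and other pathway genes 36, 33 and 29 to 38. Of all genes tested, 48.3%, 41.8% and 39.6% to 46.3% passed under the same settings. LINC01133 ranged from -2.65 to -2.57 (log2). The direction turned, among genes that did not pass, with library size alone for PORCN (0.036), WLS (0.044), TCF7 (0.022) and MYC (0.031). With 1 library left out, WLS ranged from -0.028 to 0.012, with 0.00049 without control 1, PORCN from -0.14 to 0.034, with 0.023 without knockdown 3, FRZB from -0.39 to 0.25, APC from -0.14 to 0.012 and MYC from -0.054 to 0.0088. FRZB and TRABD2B could not be tested with at least 10 counts in every library. By adjusted p, WNT5B was lost with library size alone, DESeq2 and without control 1, knockdown 1 or knockdown 3 (up to 0.13), and AXIN1 without knockdown 2 (0.072). The cause was not tested.

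Both groups are numbered 1 to 3. Deviations of same-numbered libraries from their group means correlated at -0.015, 0.0049 and 0.057, and control 2 correlated most with knockdown 1 (0.071), so the numbers were not taken as a pairing. With the replicate block, 9 WNT genes were DE and 21 passed by adjusted p, with 1747 DE genes over all genes in place of 1778.

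Depth limits the 13 WNT genes that were not tested and those under about 100 normalized counts, whose intervals are wide. Overlapping genes on the same strand, as for AXIN2 (25.3% of exons) and RNF43 (68.4%), can take counts from these genes.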

Other observations

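Planar cell polarity genes, which act downstream of WNT ligands that do not use beta-catenin, changed in both directions. Of 13 listed, 12 were tested, 4 were higher and 3 lower by adjusted p (58.3%, against 48.3% of all genes), and 2 were DE (16.7%, against 11.7%), shares near the background. CELSR3, an atypical cadherin of this pathway, had 188, 161 and 171 normalized counts in control and 259, 264 and 298 in knockdown libraries, without overlap (log2 fold change 0.65, edgeR adjusted p = 1.3e-04). PRICKLE2, a cytoplasmic component, had 762, 829 and 798 in control and 504, 513 and 563 in knockdown libraries (-0.60, edgeR adjusted p = 4.3e-06), and lost its DE call, though not its adjusted p, with library size alone and without control 2, knockdown 1 or knockdown 2. Its exons overlap an antisense gene, PRICKLE2-AS1, over 22.8% of their length.

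Some WNT genes lie across genes of the opposite strand. On the strand antisense to FZD4, where PRSS23 overlaps it, the libraries held 767, 665 and 638 counts in control and 545, 406 and 333 in knockdown, or 42.1% of the stranded counts at this gene. The log2 fold change of FZD4 was -1.04 with unstranded counts and -1.01 with the stranded column. Unstranded counts on genes were fewer than stranded ones (32949406 against 34761062 in control 1). The unstranded column is thus not the sum of both strands, and comparing the columns does not measure the antisense part. For DKK3, whose exons overlap USP47 over 47.5% of their length, the antisense share was 9.60%, and the log2 fold change was -0.31 unstranded and -0.34 stranded. For WNT2B, which overlaps ST7L over 21.5%, the antisense share was 3.17%. The part of antisense transcription in the changes of FZD4, DKK3 and WNT2B was not tested.

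Of the other pathway genes tested, CTNNB1, BIRC5, TLE4 and PYGO1 had the guide word followed by an A in the 3′ UTR. CTNNB1 (log2 fold change -0.70) and BIRC5 (-0.42) fell, and TLE4 (0.24) rose. PYGO1, a nuclear co-activator, had a log2 fold change of 0.41 (edgeR adjusted p = 0.052). PYGO1 passed with library size alone, with at least 10 counts in every library and without control 2 (adjusted p = 0.021 to 0.045). Among the 3 tested WNT genes with this word, WNT2B (-0.85) and WNT5A (-0.58) fell and WNT3 (0.31) did not pass. PYGO1 was chosen after its values were seen. The part of the guide word in the changes of these genes was not tested.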
